A study of Mus musculus with 18 samples.

Results

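The genes described here are chromatin modifiers of the mouse, chosen by name: RefSeq protein-coding genes of the GRCm38.p6 assembly whose symbol starts with Kmt, Kdm, Arid, Smarc, Hdac or Setd, or with Chd or Brd and a digit. The rule gave 89 of 21900 protein-coding genes, and 82 of them had at least 1 chimeric read. The study mapped targets of microRNAs (miRNAs) in thymocytes, the developing T cells of the thymus, by miR-eCLIP. In this assay ultraviolet light of 254 nm fixes RNA to Argonaute 2 (Ago2), to which miRNAs are bound. After immunoprecipitation (IP) of Ago2 the miRNA is ligated to the RNA it lay on, so that a chimeric read holds both. The 12 libraries formed 4 groups of 3. Wild-type C57BL/6 mice and knockout mice (B6.Mirc14tm1.1Ankr, labelled miR181a/b-1-KO, with the Mir181a-1 and Mir181b-1 genes deleted) each gave 3 libraries after the Ago2 IP alone (called IP libraries below) and 3 after a further enrichment for miR-181-5p (enriched libraries). Mice were 6 weeks old and kept free of specific pathogens, and no treatment is named. The knockout mice keep the genes for the other members of the miR-181 family. How many animals a library came from, and whether libraries came from separate animals, is not given in the sources used here, so that p-values measure the spread between libraries, which may be technical. The 6 input samples of the series were not analysed here.

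Chromatin modifiers set how tightly DNA is packed. Methyltransferases (Kmt, Setd) and demethylases (Kdm) write and remove methyl groups on histones. Deacetylases (Hdac) remove acetyl groups, and bromodomain proteins (Brd) bind acetylated histones. The ATPases and partners of the Chd and Smarc groups move nucleosomes, in complexes that also hold some of the Arid proteins. In the thymus such proteins open and close the genes by which a thymocyte becomes a CD4+ or CD8+ T cell. A miRNA pairs with messenger RNA mainly through its seed, bases 2 to 8 from its 5′ end, and guides Ago2 to repress that RNA. The miR-181 family is abundant in immature thymocytes and is known for tuning the strength of T cell receptor signals.

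The mature sequences of the miRNAs that the results turn on are given 5′ to 3′ with the seed in capitals, from RefSeq (GRCm38.p6). The 4 members of the miR-181-5p family share 1 seed, which is why they are counted together.
miR-181a-5p: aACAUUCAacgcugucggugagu
miR-181b-5p: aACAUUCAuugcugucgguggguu
miR-181c-5p: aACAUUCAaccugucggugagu
miR-181d-5p: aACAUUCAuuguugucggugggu
The most frequent miRNA on these genes outside that family, miR-142a-3p, has another seed, as have the leading members of the families that came next, let-7, miR-17/20a and miR-15/16.
miR-142a-3p: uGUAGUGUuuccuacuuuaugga
let-7a-5p: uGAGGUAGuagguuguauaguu
miR-20a-5p: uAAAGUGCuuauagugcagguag
miR-17-5p: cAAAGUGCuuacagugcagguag
miR-16-5p: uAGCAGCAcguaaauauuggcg
miR-181a-5p and miR-181b-5p are each encoded by 2 genes in the table, at Mir181a-1 and Mir181b-1 on chromosome 1, which the knockout lacks, and at Mir181a-2 and Mir181b-2 on chromosome 2.

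Wild-type Ago2 IP libraries held 43983 to 117849 chimeric reads, knockout IP libraries 52100 to 67639, wild-type enriched libraries 194628 to 293149 and knockout enriched libraries 6832 to 19264. At the deleted Mir181a-1 gene the wild-type IP libraries had 363 to 545 reads and all 6 knockout libraries had 0. Of 15 thymocyte markers, 14 or 15 had reads in each group, with summed levels of 17657 to 24020 rpm (reads per 1000000 reads assigned to protein-coding genes). Summed B cell markers stayed at or below 28.7 rpm in every library, with Cd79b and Ms4a1 at 0 throughout. Myeloid markers stayed at or below 37.4 rpm, with Csf1r, Cd14 and Mpo at 0. Of 8 stroma markers, only Pecam1 had reads in both Ago2 IP groups, 279 to 344 rpm in wild type and 430.02 to 524 rpm in the knockout. Erythroid markers reached at most 174 rpm. The part of these cells in the results was not tested.

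Together the chromatin modifiers took 19821 of 961619 reads assigned to protein-coding genes. Their share was 2.10% ± 0.0637 in the wild-type IP, 2.05% ± 0.0530 in the knockout IP, 2.04% ± 0.0567 in wild type after enrichment and 2.29% ± 0.116 in the knockout after enrichment (SD, n = 3 each). The IP libraries thus gave nearly the same share in both genotypes, and the 3 knockout enriched libraries (2.17% to 2.40%) were higher than the wild-type enriched ones (1.99% to 2.10%), from 755 member reads against 11550. A read count follows the length and the abundance of an RNA as well as the miRNA contacts on it. In these bulk libraries fewer cells of a type, less RNA per cell and fewer contacts cannot be told apart. Gene spans include introns, and the median span of these genes was 46495 nt against 17146 nt over all protein-coding genes. Across the 89 genes, span and wild-type IP reads had a Spearman rho of 0.68, a description over genes of the same libraries.

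Among the symbol groups, the Kmt and Arid genes held most reads in the wild-type IP. The 8 Kmt genes summed to 4141 ± 528 rpm and the 10 Arid genes to 4080.0 ± 232 rpm (SD, n = 3). The 10 Chd genes followed with 3127 ± 103 rpm and the 18 Kdm genes with 2747 ± 239 rpm. The 13 Smarc, 11 Hdac and 10 Setd genes were close to each other, at 1988 ± 182, 1919 ± 220 and 1916 ± 208 rpm, and the 9 Brd genes had the lowest sum, 1112 ± 99.2 rpm. Neighbours in this order differed by less than their SDs for Kmt and Arid, and for Smarc, Hdac and Setd. The most read genes of the Kmt, Arid, Chd, Kdm, Smarc, Hdac and Setd groups were Kmt2c, Arid1b, Chd1, Kdm2a (a demethylase that binds unmethylated CpG islands), Smarca4, Hdac7 and Setd5.

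The 15 most read genes held 52.8% of the chromatin modifiers' reads in the wild-type IP. Kmt2c, a histone methyltransferase of the MLL family that acts at enhancers (chromosome 5, 25271795 to 25498855, minus strand), had 144, 76 and 69 reads in the wild-type IP libraries and 62, 66 and 42 in the knockout ones. Scaled to library size these were 1469 ± 280.2 and 1063 ± 131 rpm, and every wild-type library lay above every knockout library. Arid1b, a DNA-binding subunit of the BAF remodelling complex (chromosome 17, 4994297 to 5347656, plus), had 115, 64 and 51 reads against 65, 85 and 50, and the levels of the genotypes overlapped (1156 ± 143 and 1247 ± 176 rpm). Kmt2a, the MLL gene that is rearranged in leukaemia (chromosome 9, 44803355 to 44881352, minus), had 104, 64 and 52 reads against 68, 62 and 35, again with overlap (1129 ± 188 and 1027 ± 255 rpm). Chd1, a remodeller that binds methylated histones at active promoters (chromosome 17, 15704967 to 15772612, plus), had 103, 67 and 28 reads against 58, 60 and 51. Its levels overlapped as well, at 936 ± 192 and 1069 ± 49.9 rpm.

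The other genes among the 15 ranged from 875 ± 138 rpm for Arid1a, the BAF subunit related to Arid1b, down to 425 ± 56.3 rpm for Chd4, the ATPase of the NuRD complex. Among those between them were Chd2, Smarca4 (the BAF ATPase), Hdac7 (a class IIa deacetylase of thymocytes), Setd5, Arid2 (a subunit of the PBAF complex), Kmt2d (a methyltransferase related to Kmt2c), Hdac4 and Arid4b (a partner of the Sin3 deacetylase complex). Hdac7 did not overlap between genotypes, with 645 ± 24.8 rpm in wild type and 512 ± 29.4 rpm in the knockout, but it did not pass the test described below. At the other end, 6 genes had no read on their strand in any library: Arid3c, Brd3os, Setd6, Setdb2, Smarca1 and Smarcd3. For Setd6 and Setdb2 this cannot be read as absence, since reads inside their spans lay on the other strand or in an overlap with another gene. No read could be assigned to Brd8dc, whose strand is not known here.

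**Figure D1:**
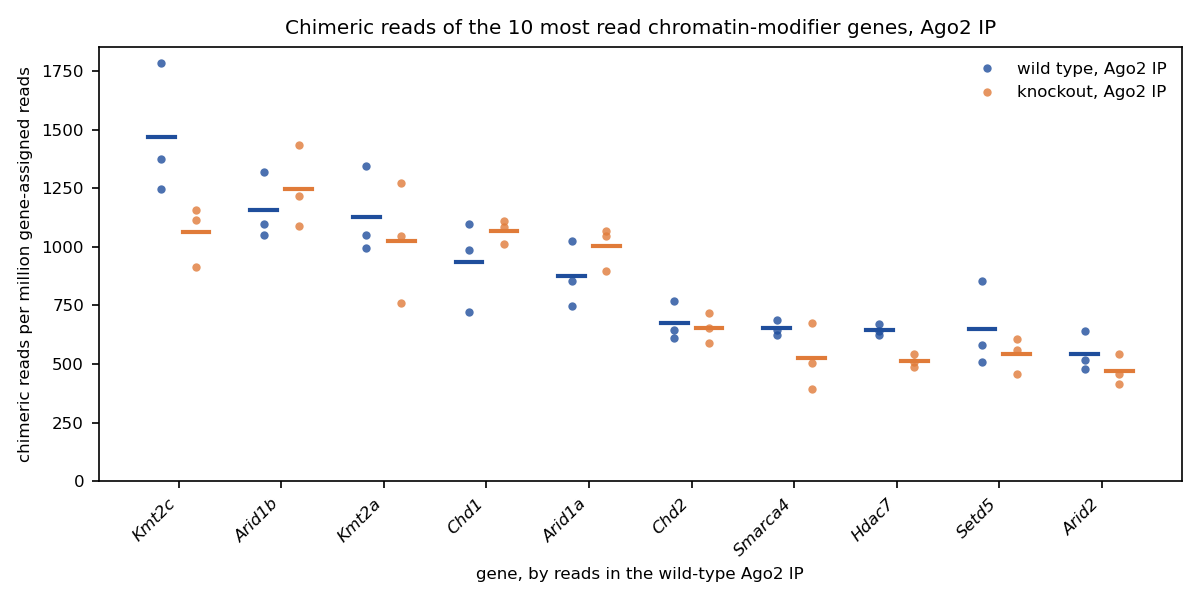
Chimeric reads per 1000000 gene-assigned reads (y axis) of the 10 chromatin-modifier genes with most wild-type IP reads (x axis); each point is a library, and bars are means of 3. Kmt2c was highest in wild type (1469 rpm) and its knockout libraries all lay lower, while Arid1b, Kmt2a and Chd1 overlapped between genotypes.

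The miRNAs on these genes were those found on all protein-coding genes, in close to the same shares. In the wild-type IP the miR-181-5p family made up 31.5% ± 0.332 of reads on chromatin modifiers, against 31.0% ± 0.934 on all protein-coding genes, and in the knockout 1.49% ± 0.343 against 1.39% ± 0.0703 (SD, n = 3). Library values were 31.2%, 31.5% and 31.8% in wild type and 1.87%, 1.40% and 1.20% in the knockout, so the genotypes stood far apart. The 95% Wilson intervals, which cover counting error only, reached from 28.8% to 35.1% in the smallest wild-type library. miR-142a-3p, a miRNA of blood cells, had a share of 27.4% ± 0.422 in wild type, against 38.7% ± 2.69 in the knockout. The let-7 family made up 12.3% ± 0.864 and 18.7% ± 2.01, and the miR-15/16 family 4.98% ± 0.496 and 6.61% ± 0.442. Shares sum to a fixed total, so that they cannot move apart from each other, and no test was run on them.

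The miR-17/20a family had a lower share on chromatin modifiers than on all genes, 8.26% ± 0.933 against 10.4% ± 0.260 in wild type. In the knockout the 2 shares were 12.4% ± 1.89 and 14.7% ± 0.487. The let-7 family had a higher share on chromatin modifiers in the knockout, 18.7% ± 2.01 against 16.4% ± 0.708 on all genes, and differed by less than its SD in wild type (12.3% ± 0.864 against 11.7% ± 0.120). The differences of the miR-15/16 family from its shares on all genes, 4.63% ± 0.0715 in wild type and 6.44% ± 0.0845 in the knockout, were smaller than its SDs. Within the miR-181 family, miR-181a-5p gave 1007 of the 1340 wild-type IP reads of the family on these genes, and miR-181b-5p 311. In the knockout IP only 18 miR-181a-5p and 7 miR-181b-5p reads were left, while miR-181c-5p had 15 reads in either genotype. After enrichment the family made up 98.6% ± 0.214 of reads on chromatin modifiers in wild type and 69.5% ± 3.72 in the knockout. In the knockout enriched libraries miR-181a-5p made up 30.1% ± 3.76 and miR-181c-5p 18.1% ± 1.68, against 79.0% ± 1.90 and 0.821% ± 0.0573 in the wild-type enriched ones.

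**Figure D2:**
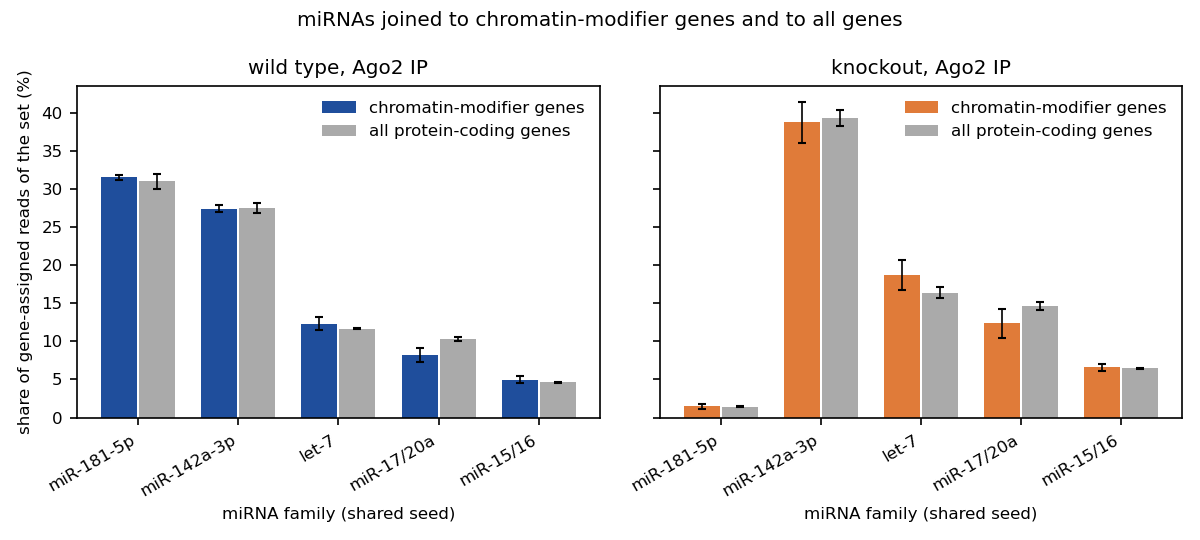
Share of reads (y axis, %) of the 5 most frequent miRNA families (x axis) on chromatin-modifier genes (coloured) and on all protein-coding genes (grey), in the wild-type (left) and knockout (right) Ago2 IP; bars are means and error bars SDs of 3 libraries. The miR-181-5p family made up 31.5% of reads on these genes in wild type and 1.49% in the knockout.

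The genes differed among themselves in how much of their reads miR-181 made up. Among the 43 with at least 30 wild-type IP reads, its share had a median of 29.0%, against 28.4% among 1768 protein-coding genes with as many reads. It was highest on Setdb1, a methyltransferase of silent chromatin, with 20 of 36 reads (55.6%, 95% Wilson interval 39.6% to 70.5%). One library carried that rank: without wild-type IP library 1 it had 4 of 11 reads (36.4%). Arid4b followed with 45 of 97 reads (46.4%), then Arid5b, a partner of a histone demethylase, with 39 of 85 (45.9%), Setd5 with 57 of 125 (45.6%) and Kmt2c with 127 of 289 (43.9%). These intervals overlapped, so no order among the 5 could be read. The lowest share was on Kdm6a, the X-linked demethylase UTX, with 8 of 59 reads (13.6%, interval 7.03% to 24.5%). Setd3, an actin methyltransferase, had 6 of 37, Smarcc2, a core subunit of BAF, 9 of 55, Kdm2a 13 of 74 and Arid3b, a DNA-binding protein, 9 of 47. Their shares lay between 16.2% and 19.1%, and that of Smarcc2 was 2 of 23 reads (8.70%) without wild-type IP library 1. Over all 3 libraries only Setdb1 lay above the 90th percentile of all genes (48.6%) and only Kdm6a below the 10th (14.7%).

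The first comparison asked which genes gained or lost chimeric reads in the Ago2 IP of mice without Mir181a-1 and Mir181b-1. Counts per gene were tested with edgeR's quasi-likelihood test over all genes with enough reads, and a gene was called at a Benjamini-Hochberg adjusted p of at most 0.05. Of the 89 chromatin modifiers 41 passed the filter on low counts, and 2 were called, 1 higher and 1 lower, while 10.2% of all 1542 genes tested were called, 3.24% higher and 7% lower. The members' median log2 fold change was -0.07, against 0.01 over all genes tested, and 7 members had an unadjusted p under 0.05. DESeq2 called none of them. Setd1b, a histone methyltransferase of a COMPASS complex (chromosome 5, 123142040 to 123168630, plus), had 16, 10 and 5 reads in wild type and 24, 16 and 15 in the knockout. Its level was higher in every knockout library, 349 ± 91.2 against 149 ± 17.7 rpm, a log2 fold change of 1.15 (SE 0.33, adjusted p = 0.0112 by edgeR). In wild type Setd1b lay under the filter on low counts, which it passed through the knockout libraries alone. Arid5b (chromosome 10, 68092523 to 68279355, minus) had 43, 25 and 17 reads in wild type and 11, 18 and 8 in the knockout. It was lower in every knockout library, 228 ± 67.8 against 420.1 ± 16.7 rpm, a log2 fold change of -0.86 (SE 0.27, adjusted p = 0.0274 by edgeR). Arid5b passed the filter through the wild-type libraries, where it was high, and its knockout libraries alone would not have passed. Both calls were lost without wild-type library 1 (adjusted p = 0.0520 for Setd1b and 0.0659 for Arid5b) and without knockout library 1 (0.142 and 0.127), and that of Arid5b also without knockout library 3 (0.150). Without a filter neither was called (adjusted p = 0.0636 for Setd1b and 0.0765 for Arid5b by edgeR).

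The reads of Arid5b and Setd1b differed by miRNA. On Arid5b, miR-181 reads went from 39 to 1 and reads of other miRNAs from 46 to 36. On Setd1b, miR-181 reads went from 7 to 0 and others from 24 to 55. On Kmt2c the miR-181 reads went from 127 to 8, while the reads of other miRNAs numbered 162 in both genotypes. These are pooled counts of libraries of unequal depth. Scaled to gene-assigned reads, other miRNAs went from 823 ± 227 to 1012 ± 123 rpm on Kmt2c. On Arid5b they went from 230 ± 24.4 to 222 ± 58.4 rpm, and on Setd1b from 120 ± 8.36 to 349 ± 91.2 rpm. The log2 fold change of Kmt2c over all reads was -0.45 (SE 0.17) and missed the threshold (adjusted p = 0.0689 by edgeR), as did that of Kmt2e, an MLL-related gene, at 0.62 (SE 0.23, adjusted p = 0.0632). Kmt2c was called without wild-type library 2, and Kmt2e with library sizes alone and with identical reads counted once. With the miR-181 chimeras left out, 38 chromatin modifiers were tested and 0 were called, against 1.73% of 1331 genes. Library sizes in this fit count reads of other miRNAs alone, so its fold changes are not on the scale of the levels above. There 5 members had an unadjusted p under 0.05, and DESeq2 called 0. Setd1b kept a log2 fold change of 1.03 (SE 0.35, adjusted p = 0.108 by edgeR), whereas those of Arid5b and Kmt2c were -0.51 (SE 0.33) and -0.17 (SE 0.19).

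**Figure D3:**
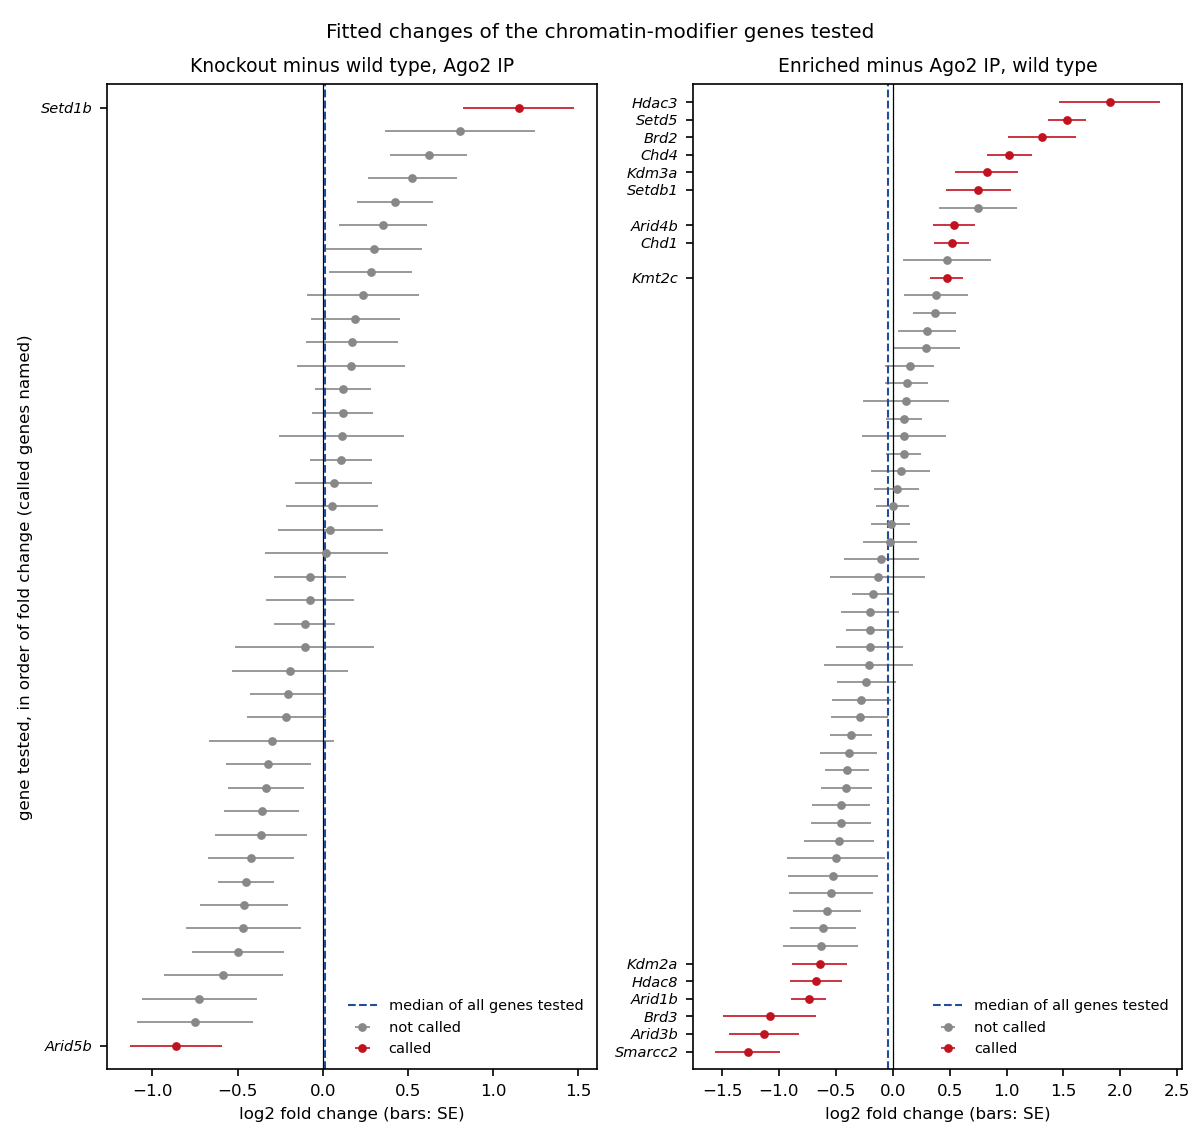
Fitted log2 fold changes (x axis, with SE) of each chromatin-modifier gene tested (y axis, in order of the fold change, with the called genes named) for knockout against wild type in the Ago2 IP (left, 41 genes) and for enriched against Ago2 IP libraries in wild type (right, 55 genes); red points were called and the dashed line is the median of all genes tested. Setd1b (1.15) and Arid5b (-0.86) were called on the left, and 15 genes on the right.

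The second comparison asked which genes the enrichment for miR-181 raised or lowered in wild type. Of 55 chromatin modifiers tested 15 were called (27.3%), 9 higher and 6 lower, while 34.4% of all 2905 genes tested were called, 18.4% higher and 16% lower. The members' median log2 fold change was -0.13, against -0.05 over all genes, and 18 had an unadjusted p under 0.05. The split moved with the scaling. With library sizes alone in place of TMM factors the median of all genes moved by -0.18, and 4 members were called higher (Setd5, Chd4, Brd2 and Hdac3) and 13 lower. DESeq2 called 9, 6 of them higher, and counting identical reads once gave 9, 4 of them higher. Repeated reads, with equal position, strand and miRNA, were 16.2% ± 1.80 of the members' reads after enrichment in wild type, against 1.77% ± 0.753 before it.

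Setd5, a SET-domain protein that works with deacetylases (chromosome 6, 113077262 to 113153432, plus), had the smallest p. It had 61, 31 and 33 reads in the Ago2 IP and 332, 316 and 278 after enrichment, or 648 ± 181 and 1659 ± 183 rpm, without overlap. The log2 fold change was 1.53 (SE 0.17, adjusted p = 8.09e-10 by edgeR), and 0.91 with identical reads counted once, where it stayed called. Hdac3, the deacetylase of the NCoR complexes, had 4, 2 and 3 reads and then 36, 37 and 15 (log2 fold change 1.90, SE 0.44, adjusted p = 7.46e-04). With so few IP reads Hdac3 passed the filter on low counts through the enriched libraries alone. Brd2, a bromodomain protein of the BET family, had 13, 6 and 4 reads and then 61, 47 and 38 (1.31, SE 0.30, adjusted p = 5.89e-04). All of the enriched libraries lay above all Ago2 IP libraries for these 3 genes, which for Hdac3 follows in part from that filter. Chd4 rose from 425 ± 56.3 to 783 ± 185 rpm (1.02, SE 0.20, adjusted p = 7.92e-05), but with identical reads counted once it was at 0.32 (adjusted p = 0.201). Chd1 (0.52), Kmt2c (0.47), Kdm3a (0.83), a demethylase of silent chromatin, and Arid4b (0.54) were also called higher, and each lost its call with library sizes alone. With identical reads counted once Arid4b was at 0.08 (adjusted p = 0.800 by edgeR), Chd1 at 0.28 (0.109) and Kmt2c at 0.28 (0.0780), while Kdm3a stayed called at 0.83. Setdb1 (0.75), the ninth, lies outside the 8 that the rule names in a direction. It lost its call with either alternative and was at 1.44 without wild-type IP library 1, where Arid4b was at 0.83. Single libraries also ended calls: Kdm3a without wild-type IP library 1 (adjusted p = 0.0660 by edgeR), Arid4b without IP library 2 or 3 (0.104 and 0.0520), and Setdb1 without IP library 2 or 3 or enriched library 1 (0.147, 0.109 and 0.0573).

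Among the genes called lower, Arid1b went from 1156 ± 143 to 624 ± 31.9 rpm, a log2 fold change of -0.74 (SE 0.15, adjusted p = 1.93e-04 by edgeR), or -0.49 without a filter on low counts. Smarcc2 had 32, 13 and 10 reads and then 19, 20 and 18 in the deeper enriched libraries (-1.28, SE 0.29, adjusted p = 5.06e-04). Arid3b went from 252 ± 75.0 to 94.9 ± 19.8 rpm (-1.13, SE 0.31, adjusted p = 0.00365). For these 3 genes, too, the groups did not overlap. Hdac8, a class I deacetylase (-0.67), Kdm2a (-0.64) and Brd3, a BET protein (-1.08), were called lower as well. Without any filter on low counts and with DESeq2 none of these last 3 was called. Brd3 passed the filter through the IP libraries alone, and it lost its call without any single one of the 6 libraries (adjusted p from 0.0574 to 0.212 by edgeR). Kdm2a lost it without wild-type IP library 2 or 3 (0.176 and 0.157) or enriched library 1, 2 or 3 (0.118, 0.0589 and 0.139), and Hdac8 without IP library 1 or 3 (0.140 and 0.0865) or enriched library 2 or 3 (0.0937 and 0.0718).

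The knockout enriched libraries were shallow, so that 3 reads, the limit a count of 0 allows, corresponded to 184 to 521 rpm. Against the wild-type enriched libraries 47 chromatin modifiers were tested and 2 were called, both higher, while 3.43% of 2040 genes were called, 1.42% higher. There 7 members had an unadjusted p under 0.05, and DESeq2 called 1. Kmt2a had 190, 252 and 166 reads in wild type and 28, 36 and 7 in the knockout, or 1086 ± 217 and 2040 ± 754 rpm, with overlap. Its log2 fold change was 0.89 (SE 0.24, adjusted p = 0.0292 by edgeR). Setd1b had 38, 37 and 22 reads and 5, 11 and 2, or 169 ± 21.3 and 501 ± 165 rpm, without overlap (1.58, SE 0.44, adjusted p = 0.0379). Both calls were lost without knockout enriched library 1 (adjusted p = 0.378 and 0.115) and without library 2 (0.494 and 0.612), and that of Setd1b also without library 3 (0.0698). The log2 fold change of Kmt2a was then 0.55 without library 1 and 0.43 without library 2, and that of Setd1b 0.78 without library 2. With knockout enriched libraries 2 and 3 taken as 1 sample neither was called (adjusted p = 0.05004 and 0.0563 by edgeR), nor without a filter (0.808 and 0.380, at 0.30 and 0.99). DESeq2 did not call Kmt2a (0.0931), counting identical reads once did not call Setd1b (0.07845), and Setd1b did not pass the filter on low counts without any single wild-type enriched library. With library sizes alone the median of all genes moved by 0.14 and 3 members were called higher. On Setd1b only 7 of the 18 knockout reads were miR-181 reads, against 94 of 97 in wild type.

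Within the knockout the enrichment raised 4 of 25 chromatin modifiers tested and lowered 0, while 20.9% of 775 genes were called, 15.2% higher and 5.68% lower. DESeq2 called 3 of the 25, all higher, and 7 had an unadjusted p under 0.05. With library sizes alone the median of all genes moved by -0.21, and 3 members were called higher and 3 lower. Kmt2c rose from 1063 ± 131 to 2905 ± 235 rpm, a log2 fold change of 1.54 (SE 0.21, adjusted p = 3.78e-09 by edgeR). Kmt2a (1.17, SE 0.24), Setd5 (1.19, SE 0.32) and Arid4b (1.07, SE 0.39) were the others. Arid4b passed the filter on low counts through the enriched libraries, where it was high, and its IP libraries alone would not have passed. Setd5 was not called without knockout enriched library 1 (adjusted p = 0.135), and Arid4b was not called without either of knockout enriched libraries 1 and 2 (0.141 and 0.466) or of knockout IP libraries 1 and 2 (0.146 and 0.159). Without a filter only Kmt2c of the 4 was called, at 0.95. Each comparison of enriched with IP libraries shares libraries with both comparisons of genotypes, so values are given side by side and were not correlated.

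Whether the knockout changed genes differently after enrichment was tested in 1 fit over all 12 libraries, a comparison chosen after seeing the data. Of 44 chromatin modifiers 0 were called, against 2.03% of 2017 genes, and 6 had an unadjusted p under 0.05. The smallest p belonged to Kmt2c, whose knockout difference was higher by 0.81 on the log2 scale after enrichment (SE 0.26, adjusted p = 0.0781 by edgeR), followed by Kmt2a (0.82, SE 0.29, adjusted p = 0.135). DESeq2 was not run for this fit. With library sizes alone, and with identical reads counted once, 2 members were called, both higher, and the first of these moved the median of all genes by 0.25. Without wild-type IP library 2, 1 member was called.

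Reads were joined into sites where neighbouring positions on a strand lay at most 20 nt apart. The chromatin modifiers held 7811 sites, of which 5855 had a single read and 206 had 10 or more. A site with 3 or more reads in every library of a group was called reproducible, and 90 sites in 43 genes were so in the wild-type enriched libraries, 26 in the wild-type IP, 23 in the knockout IP and 2 in the knockout enriched libraries, in the order of the read totals of the groups. Kmt2c had 7 sites with at least 20 miR-181 reads in the wild-type enriched libraries, Setd5 5 and Kmt2a 4. The 10 sites with most such reads held 22.6% of all miR-181 reads on these genes there. Coordinates of sites are those of the files (GRCm38, the mm10 build); exons, introns and UTRs were not analysed here.

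The site with most miR-181 reads lay in Setd5, at chr6:113152247-113152401 (plus), 1031 nt from the 3′ end of the span. It had 9, 4 and 10 reads in the wild-type IP, 0, 1 and 0 in the knockout IP, 205, 195 and 179 in the wild-type and 3, 4 and 3 in the knockout enriched libraries. Of its 23 wild-type IP reads 22 were miR-181, and it held 62.9% of the gene's enriched miR-181 reads. Repeats made up 63.4% of its wild-type enriched reads. All its reads in the 12 libraries lay on 99 positions.

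The next site lay in Kmt2c, at chr5:25273051-25273304 (minus), 1256 nt from the 3′ end of the span. It had 36, 24 and 17 reads in the wild-type IP and 10, 6 and 7 in the knockout, or 392 ± 47.6 and 147 ± 43.1 rpm, without overlap. Of the 77 wild-type reads 57 were miR-181 and 11 miR-142a-3p, and of the 23 knockout reads 14 were miR-142a-3p. Among 251 sites of all genes tested in the IP libraries, 35.1% were called, 25.5% lower. Only 4 of them lay in chromatin modifiers, and this one alone was called, with a log2 fold change of -1.58 (SE 0.37, adjusted p = 1.20e-04 by edgeR). The site passed the filter on low counts through its wild-type libraries, where it was high. Its knockout libraries alone would not have passed, so that the lack of overlap follows in part from that filter. With library sizes alone the median of all sites moved by 0.38 and this site stayed called, whereas without a filter it was not (adjusted p = 0.370 by edgeR). The 3 others, in Arid1a, Chd1 and Kmt2a, had log2 fold changes of -0.87 (adjusted p = 0.0885 by edgeR), 0.27 and -0.23. Without wild-type IP library 2 or 3, or knockout IP library 3, 2 sites of chromatin modifiers were called.

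In the enriched libraries this Kmt2c site had 213, 168 and 125 reads in wild type and 23, 28 and 9 in the knockout. That was 886 ± 67.0 and 1831 ± 340.0 rpm, with every knockout library above every wild-type library. These are shares of libraries of very unequal depth, 6832 to 19264 chimeric reads in the knockout against 194628 to 293149. A higher share of so few reads does not mean more miR-181 contacts at the site. The site's 60 knockout reads were all miR-181 and carried the names of miR-181a-5p (18 reads), miR-181d-5p (17) and miR-181b-5p (14) most often, against 363 miR-181a-5p and 136 miR-181b-5p reads of 506 in wild type.

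The third site was in Chd1 (chr17:15753908-15754073, plus), 18539 nt from the 3′ end, with 344 wild-type enriched reads. The fourth, in Chd4 (chr6:125109356-125109420, plus), had 285, of which 65.6% were repeats, and the fifth, in Arid4b (chr13:14077852-14077888, plus), had 195. In the Ago2 IP these 3 sites had 13, 14 and 19 wild-type reads and 0 knockout reads, where 3 reads in a knockout IP library corresponded to 50.7 to 65.3 rpm. The others of the 10 were in Kmt2a (chr9:44803364-44803544, minus; 157 miR-181 reads), Chd2 (chr7:73481041-73481164, minus; 147), Arid5b (chr10:68095972-68096100, minus; 138), Brd2 (chr17:34115669-34115795, minus; 117) and Arid1a (chr4:133689081-133689180, minus; 111). All 10 had more wild-type than knockout IP reads, in counts not scaled to depth. The sites were picked by their wild-type miR-181 reads, so this direction was largely set by the choice and is no separate result. Among these 10 the Brd2 site stood apart in its miRNA, with 60.7% of its wild-type enriched miR-181 reads named miR-181b-5p, against 2.56% to 26.9% at the other 9. It was not alone among all sites. At an Hdac7 site and an Hdac2 site with fewer such reads, picked after their values were seen, the part was 91.0% and 58.6%.

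**Figure D4:**
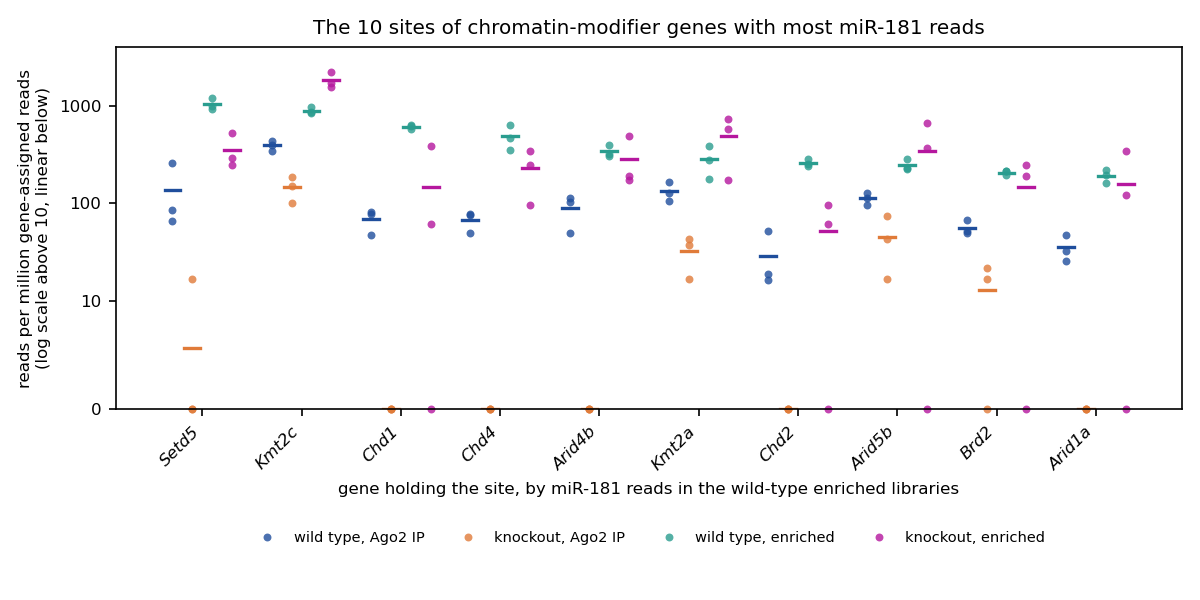
Reads per 1000000 gene-assigned reads (y axis, log scale above 10 and linear below) at the 10 sites with most miR-181 reads in the wild-type enriched libraries, named by gene (x axis); each point is a library and bars are means of 3. Knockout Ago2 IP libraries lay at 0 for Chd1, Chd4, Arid4b, Chd2 and Arid1a. At the Kmt2c site all knockout enriched libraries lay above the wild-type enriched ones. Knockout enriched means were also higher at the Kmt2a and Arid5b sites, with overlap, and lower at the others.

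Other sites carried miR-142a-3p in place of miR-181, and those named here were picked after their values were seen. At a Kmt2a site (chr9:44806614-44806813, minus) 15 of 21 wild-type and 34 of 38 knockout IP reads were miR-142a-3p, or 109 ± 44.8 and 234 ± 71.2 rpm over all its reads. At a Setd5 site (chr6:113121574-113121746, plus) 21 of 25 and 19 of 26 were. At a Kmt2c site far upstream (chr5:25332547-25332643, minus; 60752 nt from the 3′ end) all 17 wild-type and all 15 knockout reads were miR-142a-3p. None of these 3 had enough reads to be tested. Over whole genes, Smarcc2 had the highest miR-142a-3p share among the 15 chromatin modifiers with most such reads in wild type, 53.4% of its Ago2 IP reads of both genotypes, and Arid1a the lowest, 20.8%.

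Reads of miR-181 lay nearer to the 3′ ends of these genes than those of miR-142a-3p. In the 75 chromatin modifiers with a span of at least 20000 nt, 35.0% ± 4.35 of miR-181 reads of the wild-type IP lay in the last 5000 nt of the span, against 24.9% ± 3.09 of miR-142a-3p reads (SD, n = 3). In the 9964 other genes of that length the shares were 24.1% ± 0.326 and 25.4% ± 0.617. The 3 libraries ranged from 32.0% to 40.0% for miR-181 and from 22.4% to 28.3% for miR-142a-3p on chromatin modifiers, without overlap. The remaining miRNAs, too, had a higher share there on chromatin modifiers in the wild-type IP, 27.3% ± 0.818 against 22.6% ± 0.517 in other genes. In the knockout IP miR-142a-3p had 28.5% ± 1.62 on chromatin modifiers and 24.5% ± 0.507 in other genes. A higher share near the 3′ end was thus not particular to miR-181. No test was run on these shares.

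Part of the higher miR-181 share on chromatin modifiers lay in few genes. Without Kmt2c the miR-181 share in the last 5000 nt was 31.2% ± 4.02, and without Kmt2c and Setd5 29.5% ± 2.79. Without both, its libraries (27.6% to 32.7%) overlapped those of miR-142a-3p on all 75 genes (22.4% to 28.3%). The miR-142a-3p share was not recomputed without these genes. In the wild-type enriched libraries it ranged from 13.6% to 47.6%, from 62 reads. The miR-181 share in the wild-type enriched libraries was 38.5% ± 2.45 on all 75 genes, 35.4% ± 2.94 without Kmt2c and 30.3% without both, against 24.9% ± 1.09 in other genes. Gene by gene, among those with at least 30 such miR-181 reads, the median share was 23.1% over 57 chromatin modifiers and 17.4% over 2761 other genes, with wide and overlapping quartiles (8.60% to 47.9% and 6.12% to 41.1%). It was highest in Setdb1 (88.9% of 153 reads), Setd5 (84.4% of 921), Hdac2, a class I deacetylase (83.3% of 102), and Kmt2a (81.1% of 593). These 4 were named after their values were seen.

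**Figure D5:**
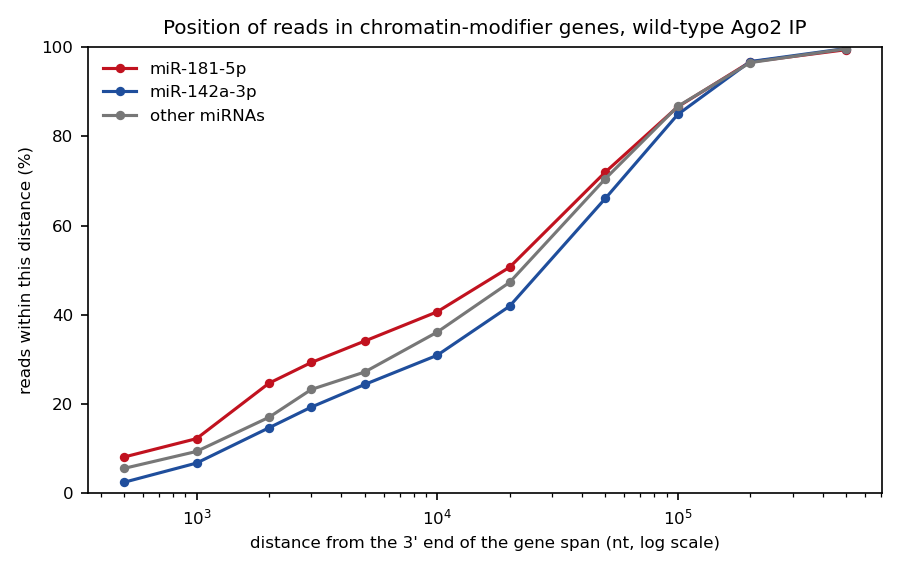
Cumulative share of wild-type IP reads (y axis, %) within a distance of the 3′ end of the gene span (x axis, nt, log scale) in the 75 chromatin-modifier genes of at least 20000 nt, pooled over 3 libraries, for miR-181-5p, miR-142a-3p and other miRNAs. Within 5000 nt lay 34.1% of miR-181-5p and 24.4% of miR-142a-3p reads.

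Other chromatin genes were taken from 6 lists chosen by function. In the Ago2 IP comparison of genotypes 1 of 8 polycomb genes tested was called, Cbx7, a reader of methylated histones, at -1.43 (SE 0.50, adjusted p = 0.0496 by edgeR), and 1 of 10 other remodellers, Baz2a, at -0.61 (SE 0.17). Cbx7 passed the filter on low counts through the wild-type libraries alone. Over all genes tested 10.2% were called. None of 6 other histone methyltransferases, 5 acetyltransferases, 7 deacetylase partners and sirtuins and 5 DNA methylation genes was called. In wild type the enrichment raised 3 and lowered 3 of 12 polycomb genes. Over all genes tested 34.4% were called, 18.4% higher and 16% lower. It raised 2 and lowered 1 of 13 other remodellers, and raised 3 and lowered 2 of 12 deacetylase partners and sirtuins. Of 6 acetyltransferases 2 rose and 2 fell, of 6 DNA methylation genes 1 rose and 1 fell, and of 8 other methyltransferases 2 fell. Atrx, a remodeller of repeat-rich chromatin, went from 947 ± 41.0 to 3407 ± 307 rpm in wild type (1.97, SE 0.14) and from 767 ± 97.7 to 6378 ± 2234 rpm in the knockout (3.18, SE 0.19), and Pcgf1, a polycomb subunit, fell by 3.97 (SE 0.38) in wild type. Pcgf1 passed the filter on low counts through the IP libraries alone.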

How the data were processed

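The deposited files hold counts: per the files themselves, each line is 1 chimeric read placed at 1 nt, with its miRNA and strand, and the authors scaled nothing. The submitters' processing notes name STAR 2.7.10, Bowtie2 2.4.5, UMI-tools 1.1.1, SAMtools 1.11 and bedtools 2.30.0 and the builds mm10 and GRCm38.p6, without their order. Files of the 6 input samples were not analysed here. Genes, miRNAs, lists and the genes named were chosen with earlier results of these data known.

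A read went to the protein-coding span of GRCm38.p6 that held it on its strand, and reads in spans of several genes were left out. Of all 1190995 reads 80.74% were assigned. Strand came from a RefSeq promoter table for 67 of the 89 chromatin modifiers and, for 21, from the strand of at least 90% of at least 10 reads, a rule that gave the table's strand in 97.63% of 6044 genes. 1 gene, Brd8dc, had no strand. Of 156 miRNAs on these genes 118 matched RefSeq. Antisense reads were 0.766% of the members' reads. For the 21 genes whose strand came from their reads, a low part was set by that rule.

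All genes, or all sites, were tested by quasi-likelihood in edgeR 4.0.16 (R 4.3.3) after filterByExpr at its default, a minimum count of 10, and TMM scaling. Each fit between 2 groups used those groups alone and was also run on simulated counts. The fit of the difference of knockout effects used all 12 libraries and was not run on simulated counts. Adjustment was by Benjamini-Hochberg, with calls at 0.05. Folds are relative to the TMM scale. DESeq2 1.42.0, library sizes alone, no filter, identical reads counted once, reads counted for each of several spans, a replicate block, knockout enriched libraries 2 and 3 as 1 sample, sites joined over 50 nt and each library left out were alternatives. Python 3.11.15 served the rest. The genes named are the 15 most read, up to 8 called in a direction, the 5 highest and lowest miR-181 shares, the 10 top sites, 5 miRNA families and the most read gene of each symbol group. Within each group all pairs of libraries differed in their counts over genes (chi-square test, largest p = 0.0476), and they were kept as separate samples. Chi-square per degree of freedom was 1.06 to 1.14 in the IP libraries, which thus differed little beyond counting error. It was 1.10 to 1.23 in the knockout enriched and 1.25 to 1.86 in the wild-type enriched libraries. Whether libraries of the same number belong together is not stated. Their correlations were -0.11 to 0.0002 between genotypes and 0.002 to 0.11 between IP and enriched libraries. Such values cannot settle whether libraries were paired, and the main fits leave pairing out. The values of 2 genes are not reported here.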

Additional observations from a re-analysis of the deposited data

How the results depend on the processing

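The 24 values of called genes and sites were recomputed 290 times, and none changed direction: 217 stayed called and 73 did not. Where 2 chromatin modifiers were called between genotypes in the Ago2 IP, DESeq2 and no filter called 0, and leaving out single libraries gave 0 to 3, with 0 to 2 of the same genes. Of the 15 called for the enrichment in wild type, DESeq2 kept 9 and counting identical reads once also 9; leaving out single libraries called 11 to 13, with 10 to 12 of the same genes. Against 2 called between genotypes after enrichment, the replicate block and DESeq2 each gave 1, knockout enriched libraries 2 and 3 as 1 sample 0, no filter 2 other genes, and single libraries 0 to 2, with 0 to 1 of the same genes. For the enrichment in the knockout, with 4 called, single libraries gave 3 to 5, with 2 to 4 of the same genes, and no filter 4, with 1 of the same. Of sites, no filter called 3 and single libraries left 1 to 2, and the Kmt2c site was not called without a filter (adjusted p = 0.370), where 4324 sites of these genes were fitted. The difference of knockout effects, chosen after seeing the data, gave 2 with library sizes alone, 2 with identical reads counted once and 0 to 1 without single libraries. Counting identical reads once moved the chromatin modifiers' share of wild-type enriched reads to 2.12% and its miR-181 part to 98.4%. The cause of these changes was not tested. The replicate block changed no other call. Libraries of the same number correlated at -0.11 to 0.11, which cannot settle whether they were paired. Counting reads in exons only was not run, since no exon table was used here. Depth limits the knockout enriched libraries most.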
